A study of Mus musculus with 27 samples.

Results

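Myeloid C-type lectin receptors are surface receptors by which macrophages, monocytes and dendritic cells sense sugars of microbes and lipids or proteins released from dying cells. The group described here is Clec4e (Mincle), Clec4d (MCL, also called Dectin-3), Clec4n (Dectin-2), Clec7a (Dectin-1), Clec5a (MDL-1) and Clec12a (an inhibitory receptor). Members were matched by gene symbol in the probe annotation of the array, and each gene was read from whichever of its single-gene probe sets had the highest mean across the 27 arrays. By this rule 5 of the 6 genes were measured, among 18193 genes in all. Clec12a has no single-gene probe set in the annotation used, and was not analysed here.

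RNA came from the epididymal adipose tissue (EAT) of male C57BL/6J mice, which were purchased at 5 weeks of age, kept on a standard diet for 1 week, and then fed for 18 weeks. There were 3 diets with 9 mice each: the AIN93G control diet, a Western diet, and the same Western diet with 0.05% quercetin, a plant flavonol. The Western diet took 39.9% of its energy from fat (20% butter, 1% soy oil and 0.15% cholesterol) and 34% from sucrose, so that the Western and quercetin groups share it. Each mouse had 1 Affymetrix GeneChip Mouse Genome array. The mice were housed 3 per cage, and the labels used here do not tie mice to cages, so the p-values treat the mice of a diet as independent.

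In obese fat, macrophages gather around dying adipocytes, and Mincle is known as a receptor of these macrophages. Receptors of the Mincle, MCL and Dectin-2 branch signal through the adaptor Fcer1g, MDL-1 through Tyrobp (DAP12) and also Hcst (DAP10), and Dectin-1 through a motif of its own tail. Fcer1g, Tyrobp and the Dectin-1 tail lead to the kinase Syk, and from there to Card9, Bcl10 and Malt1, to NF-kappaB and to cytokine genes. EAT is a mixture of adipocytes, macrophages and other cells, so that fewer cells of a type and less RNA per cell cannot be told apart.

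All 6 genes lie on mouse chromosome 6. In the RefSeq annotation of GRCm38.p6, Clec4n, Clec4d and Clec4e follow each other among the protein-coding genes, Clec7a lies between Clec1a and Olr1, and Clec5a lies apart from both clusters. The 250 bases before the RefSeq start of 4 of the receptors are shown. Clec4d and Clec7a rose on the Western diet in these data, while Clec4e and Clec5a did not pass the test. Clec4n did not pass either, and it had no entry among the promoter sequences used here. Capitals mark the letters GAGGAA on either strand (TTCCTC when read on the other), the core bound by PU.1, a transcription factor of myeloid cells. Each sequence is written 5′ to 3′ on the strand of its gene. Clec4d is on the plus strand (chr6:123261857-123262106), and Clec7a (chr6:129472780-129473029), Clec4e (chr6:123289872-123290121) and Clec5a (chr6:40585806-40586055) are on the minus strand.
Clec4d: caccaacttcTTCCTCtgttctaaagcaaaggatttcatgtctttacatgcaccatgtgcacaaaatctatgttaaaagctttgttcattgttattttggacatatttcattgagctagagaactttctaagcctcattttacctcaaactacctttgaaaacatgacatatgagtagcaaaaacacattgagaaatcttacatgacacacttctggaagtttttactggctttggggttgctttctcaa
Clec7a: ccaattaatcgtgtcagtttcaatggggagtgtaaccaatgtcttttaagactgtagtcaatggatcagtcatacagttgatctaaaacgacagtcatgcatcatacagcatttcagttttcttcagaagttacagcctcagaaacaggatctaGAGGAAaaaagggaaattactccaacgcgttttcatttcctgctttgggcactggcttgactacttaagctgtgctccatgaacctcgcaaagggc
Clec4e: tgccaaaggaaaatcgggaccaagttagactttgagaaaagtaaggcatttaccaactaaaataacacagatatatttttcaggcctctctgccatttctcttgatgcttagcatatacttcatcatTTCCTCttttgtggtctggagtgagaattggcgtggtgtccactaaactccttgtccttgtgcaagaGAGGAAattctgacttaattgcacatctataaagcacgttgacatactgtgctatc
Clec5a: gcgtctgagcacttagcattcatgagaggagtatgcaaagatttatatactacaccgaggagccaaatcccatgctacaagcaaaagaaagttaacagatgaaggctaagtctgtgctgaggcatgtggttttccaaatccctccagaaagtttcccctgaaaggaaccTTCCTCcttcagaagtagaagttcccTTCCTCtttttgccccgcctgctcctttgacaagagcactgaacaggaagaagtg
The letters were found once before Clec4d, beginning 240 bases before the start, and once before Clec7a, 96 bases before it. Clec4e held 2 matches (123 and 56 bases before the start) and Clec5a held 2 (81 and 55 bases before the start). Of 32851 RefSeq promoter windows of the same length, 7639 (23.3%) held the letters on either strand, so their presence in all 4 windows is a description of these sequences and not a site. The letters TTGCNNAA, a C/EBP-type motif searched on both strands and held by 9.56% of the windows, were found only before Clec4e among these 4, and TATAAA, held by 12.4%, was found before Clec4e (29 bases before the start) and Clec5a (209 bases before it). The motifs do not overlap each other there.

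The Western diet raised 2 of the 5 receptors, Clec4d and Clec7a, about 3-fold over the control diet, and none was lower. Over all genes, 11.3% were called higher and 6.44% lower in this comparison (limma, adjusted p under 0.05). Values below are log2 signals after quantile normalization, where a difference of 1 is a doubling of the signal, and signals of different genes come from different probes and are not compared with each other.

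Clec7a encodes Dectin-1, the receptor of beta-glucans. Its log2 signal ranged from 7.67 to 9.21 with a median of 8.13 in control mice, from 8.58 to 10.4 with a median of 9.98 in Western mice, and from 7.81 to 10.01 with a median of 8.49 in quercetin mice. On the scale of the deposited intensities the medians of Clec7a were 308, 958 and 390. Of the 9 control mice, 8 lay below every Western mouse, and control replicate 3, at 9.21, reached into the Western range. The mean of Clec7a rose by 1.54 ± 0.30 (log2, SE) from 8.18 ± 0.48 to 9.72 ± 0.66 (SD, n = 9 each), a 2.90-fold change with an adjusted p of 0.00056 in limma.

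Clec4d encodes MCL, which pairs with Mincle at the cell surface. The log2 signal of Clec4d was 4.64 to 7.07 (median 5.29) in control mice, 6.19 to 8.21 (median 7.61) in Western mice and 5.25 to 7.47 (median 5.93) in quercetin mice. Here 7 of 9 control mice lay below every Western mouse, and control replicate 3 was again the highest of its group. That mouse also stood apart in its B cell markers, with a mean log2 signal of 6.52 against 3.06 to 4.81 in the other control mice, and without it Clec4d rose by 1.92. Clec4d rose by 1.74 ± 0.35 (log2, SE; 3.33-fold), with an adjusted p of 0.00088 in limma. The name of the Clec4d probe set, like that of Clec4n, marks probes that can match several related transcripts, and signal from close relatives could not be told apart there.

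**Figure D1:**
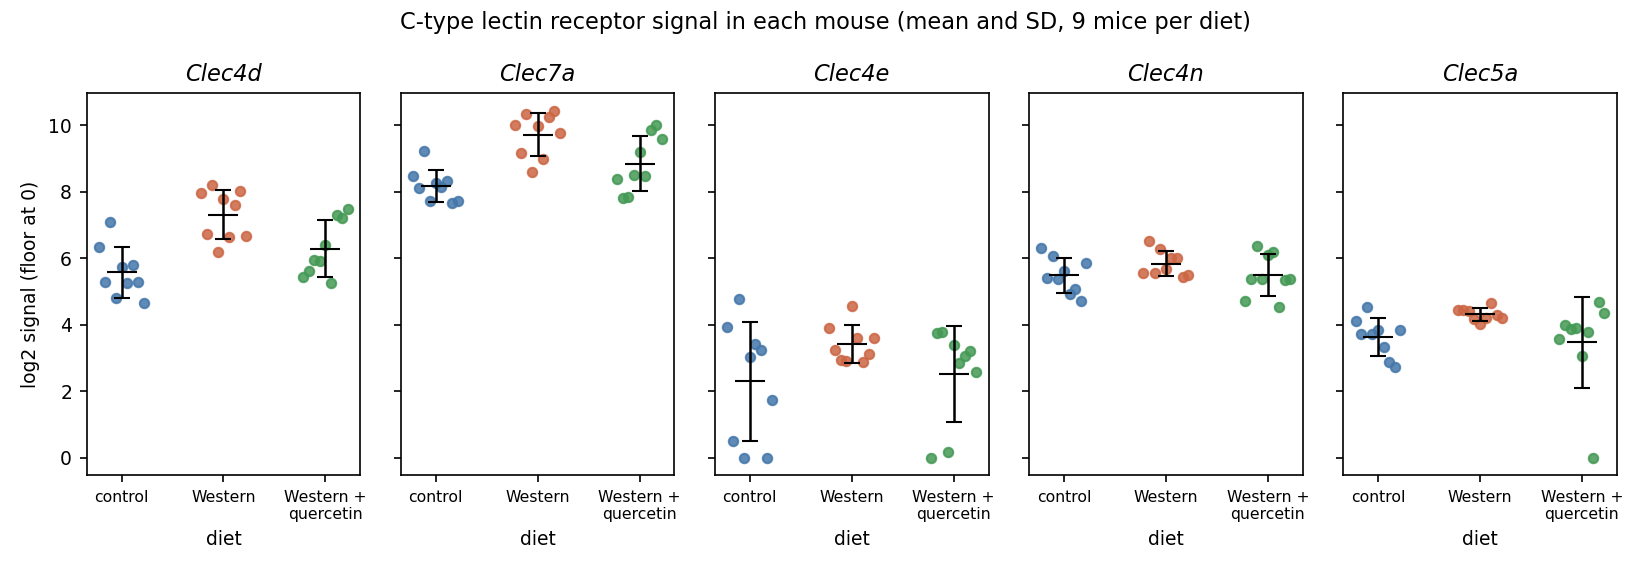
Log2 signal of each measured receptor (y axis) in every mouse by diet (x axis); points are mice, bars the mean and SD of 9 mice. Clec4d and Clec7a are higher on the Western diet, with groups that overlap. Of 9 Western mice, 5 lie above every control mouse for Clec4d and 6 for Clec7a. Clec4e and Clec5a have mice at the floor of 0, and heights of different genes are not comparable.

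Clec4e, Clec4n and Clec5a did not pass the test on the Western diet. Clec4e, the Mincle gene, had signals below 32 on all 27 arrays and lay at the floor (a signal of 1, log2 of 0) in 2 control mice and 1 quercetin mouse. Its log2 signal was 0 to 4.78 (median 3.04) in control mice, 2.87 to 4.57 (median 3.23) in Western mice and 0 to 3.79 (median 3.05) in quercetin mice. The medians of the 3 diets were close, and the spread came from mice at or near the floor. The mean difference between Western and control mice was 1.12 (95% interval -0.15 to 2.39, adjusted p = 0.227 in limma), the other Clec4e probe set gave -0.08 (adjusted p = 0.941), and a pseudocount of 16 brought the difference to 0.21.

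Clec5a encodes MDL-1, a receptor of monocytes and neutrophils. Its signals too were below 32 on all 27 arrays, with log2 values of 2.73 to 4.52 (median 3.73) in control mice and 4.01 to 4.66 (median 4.28) in Western mice. With quercetin Clec5a was 0 to 4.69 (median 3.85), and quercetin replicate 7 was at the floor. The Western mice were close together (SD 0.20), and 7 of 9 control mice lay below all of them. The difference was 0.68 (95% interval -0.14 to 1.51), with an adjusted p of 0.261 in limma. The adjusted p of Clec5a was 0.045 without quercetin replicate 7, and it stayed above the threshold with control and Western mice alone in the fit (0.0606) and with a pseudocount of 16 (0.0826, with a difference of 0.32). A two-sided exact permutation test of the 9 Western against the 9 control mice alone gave p = 0.0020 (unadjusted, 1 of 15 such tests over 5 receptors and 3 comparisons).

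Clec4n encodes Dectin-2, the receptor of fungal mannans. Its log2 signal was 4.72 to 6.30 (median 5.39) in control mice, 5.43 to 6.52 (median 5.68) in Western mice and 4.54 to 6.36 (median 5.38) in quercetin mice. The 3 diets overlapped over most of their range, and the Western minus control difference of 0.35 (95% interval -0.15 to 0.85, adjusted p = 0.351 in limma) did not pass. A second Clec4n probe set gave 0.32 (adjusted p = 0.341).

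With quercetin added to the Western diet, all 5 receptors had a lower mean than on the Western diet alone, and 0 of 5 passed limma at an adjusted p of 0.05. Quercetin changed few genes at that threshold: 0.253% of all genes were called higher and 0.077% lower, while 46.5% had a negative difference. At an unadjusted p under 0.05, 3 of the 5 receptors (Clec4d, Clec7a and Clec5a) were lower, against 6.41% of all genes. The difference for Clec4d was -1.03 (95% interval -1.75 to -0.31, adjusted p = 0.157 in limma), and that for Clec7a was -0.87 (95% interval -1.48 to -0.26, adjusted p = 0.157 in limma).

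The calls for these receptors turned on the test. The methods' test, an analysis of variance over the 3 diets and then Tukey's post hoc comparison of pairs, called Clec4d and Clec7a lower with quercetin. Benjamini-Hochberg adjustment over genes was applied there to the analysis of variance only. Tukey's p, not adjusted over genes, was 0.0279 for Clec4d and 0.0296 for Clec7a, so this call is not like that of limma. Limma with array weights also called both (adjusted p = 0.0305 for Clec4d and 0.0331 for Clec7a). The exact permutation test gave unadjusted p = 0.0173 for Clec4d, 0.0285 for Clec7a and 0.0157 for Clec5a. The Clec5a difference of -0.85 (adjusted p = 0.349 in limma) halved to -0.41 without quercetin replicate 7, the mouse at the floor, and was -0.30 with a pseudocount of 16. Clec4e differed by -0.88 (adjusted p = 0.587 in limma), by -0.57 without quercetin replicate 1 and by -0.21 with a pseudocount of 16. Clec4n differed by -0.35 (adjusted p = 0.586 in limma), and by -0.23 without quercetin replicate 7.

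The quercetin mice were spread widely for the same receptors. Replicates 7, 8 and 9 had Clec7a at 9.86, 10.01 and 9.57, within the Western range, while the other 6 mice lay between 7.81 and 9.20. The same mice had Clec4d at 7.31, 7.20 and 7.47, and the other 6 lay between 5.25 and 6.40. For each of Clec4d and Clec7a, 5 of the 9 quercetin mice lay below every Western mouse, and for Clec5a 7 of 9 did.

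Against the control diet, quercetin mice showed no receptor past the threshold, where 5% of all genes were called higher and 1.65% lower. The order of the means was control, quercetin, Western for Clec4d, Clec7a, Clec4e and Clec4n, with quercetin below control for Clec5a. Control and quercetin mice, which are neighbours in that order, were not separated by the test for any receptor. Nor were quercetin and Western mice in limma without array weights. The largest quercetin minus control differences were 0.70 for Clec4d (95% interval -0.02 to 1.42, adjusted p = 0.239 in limma) and 0.66 for Clec7a (95% interval 0.05 to 1.27, adjusted p = 0.184 in limma). The quercetin comparison with the Western diet and that with the control diet use the same 9 quercetin arrays, and each is given for its own values.

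**Figure D2:**
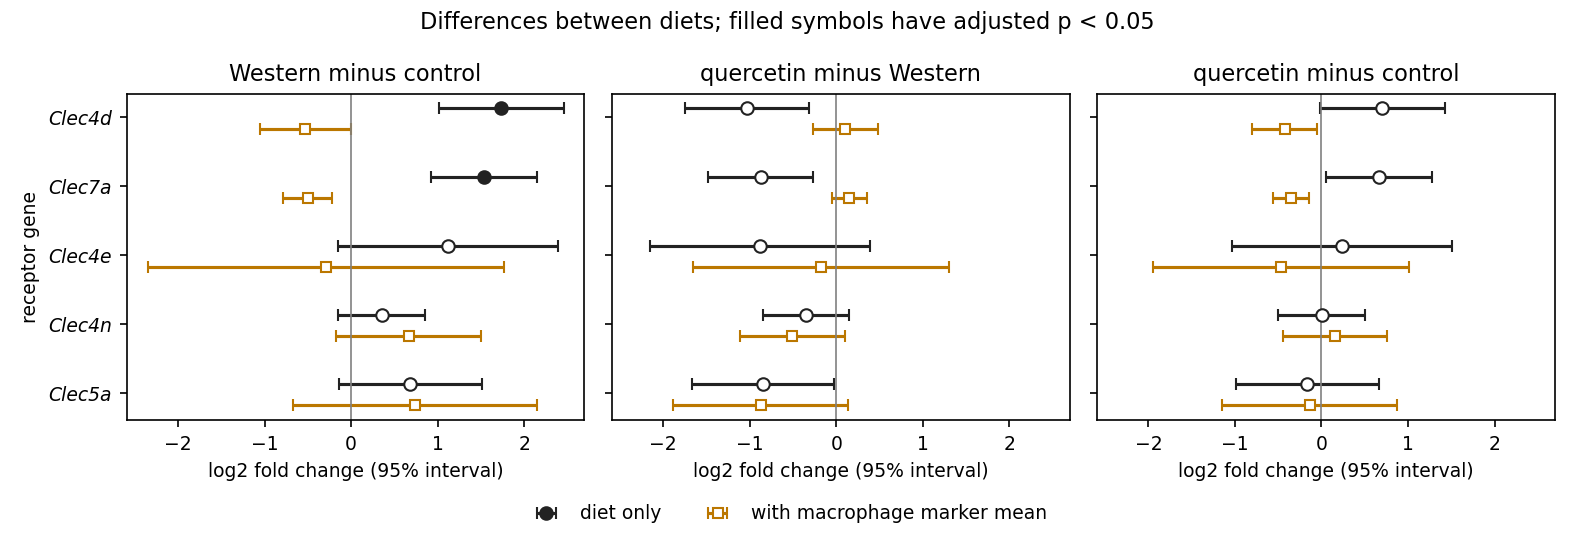
Log2 fold change (x axis, with its 95% interval) of each receptor (y axis) in the 3 comparisons; circles are the fit with diet alone, squares the fit that also holds the macrophage marker mean, and filled symbols passed an adjusted p of 0.05. The filled circles are Clec4d (1.74) and Clec7a (1.54) in Western against control mice, and their squares lie at -0.53 and -0.50.

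Macrophage markers moved with these differences. Of 7 pan-macrophage markers measured (Adgre1, Cd68, Csf1r, Fcgr1, Mertk, the lysozyme gene Lyz2 and Cd14), 6 rose on the Western diet, with a median difference of 1.10. Over all genes 11.3% were called higher there. Mertk did not rise (-0.12, adjusted p = 0.548 in limma). The mean log2 signal of the 7 markers per mouse was 8.55 to 9.61 in control mice, 9.45 to 10.7 in Western mice and 9.01 to 10.2 in quercetin mice, and no marker was at or near the floor. With quercetin 0 of 7 passed, with a median difference of -0.69, where 0.077% of all genes were called lower. All 6 measured markers of lipid-associated macrophages (Trem2, Cd9, Gpnmb, Atp6v0d2, Itgax and Lgals3) rose on the Western diet, by a median of 2.47, and 0 of 6 passed with quercetin (median -1.13). The mean log2 signal of these 6 markers per mouse was 6.74 to 9.05 in control mice, 9.06 to 11.1 in Western mice and 6.87 to 10.6 in quercetin mice.

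When the pan-macrophage mean of each mouse was held in the fit beside diet, neither receptor passed on the Western diet. The Western minus control difference was then -0.53 for Clec4d (95% interval -1.05 to -0.0019, adjusted p = 0.738 in limma) and -0.50 for Clec7a (95% interval -0.79 to -0.22, adjusted p = 0.479 in limma), against 1.74 and 1.54 with diet alone. The quercetin minus Western differences became 0.10 for Clec4d and 0.15 for Clec7a (adjusted p = 0.998 and 0.958 in limma). That fit called 3 genes higher and 1 lower over all genes in Western against control mice, and the marker mean itself differed by diet. For Western against control mice the Clec5a difference was 0.74 with the marker mean and 0.68 without it, and the Clec4n difference was 0.67 with it and 0.35 without it (adjusted p = 0.922 and 0.822 in limma with the marker mean).

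Within a diet, where all mice ate the same food, Clec7a and Clec4d followed the macrophage markers closely. Over 15 relations (5 receptors in 3 diets of 9 mice), 7 passed an adjusted p of 0.05 by a two-sided exact permutation test of Pearson's r. The share of all genes with such a relation was not computed. For Clec7a, r was 0.926 in control mice, 0.986 in Western mice and 0.989 in quercetin mice (exact permutation p = 0.00031, 1.9e-05 and 1.1e-05, adjusted p = 0.0012, 0.00014 and 0.00014). Spearman's rho of Clec7a was 0.817, 0.950 and 0.983 (exact permutation p = 0.011, 0.00035 and 5.0e-05, adjusted p = 0.0323, 0.0026 and 0.00074). These values rest on arrays of the same RNA, so that receptor and markers share the depth and make-up of each sample.

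For Clec4d, r was 0.937 in control mice, 0.945 in Western mice and 0.899 in quercetin mice (exact permutation p = 0.00039, 0.00033 and 0.0031, adjusted p = 0.0012, 0.0012 and 0.0077). Its rho was 0.850, 0.883 and 0.700 (exact permutation p = 0.0061, 0.0031 and 0.0433, adjusted p = 0.0228, 0.0154 and 0.0927). Without the 2 mice of each diet farthest from the median of the marker mean, r of Clec7a was 0.726, 0.954 and 0.977, and r of Clec4d was 0.744, 0.921 and 0.820. On the control diet the relation rested in part on replicates 1 and 3, the mice with the highest marker means.

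The other receptors did not follow the markers in every diet. Clec4e had r = 0.792 on the control diet (rho 0.770, exact permutation p = 0.0094 and 0.0195, adjusted p = 0.0201 and 0.0487), with 0.597 left without replicates 1 and 3, and r was 0.055 and 0.118 in Western and quercetin mice (adjusted exact permutation p = 0.890 and 0.806). Clec4n had r = 0.639, -0.682 and -0.421 on the control, Western and quercetin diets, and Clec5a had 0.673, 0.436 and -0.305. None of these 6 values passed the adjusted exact permutation test, where the lowest adjusted p was 0.081, and whether r differs between diets was not tested.

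**Figure D3:**
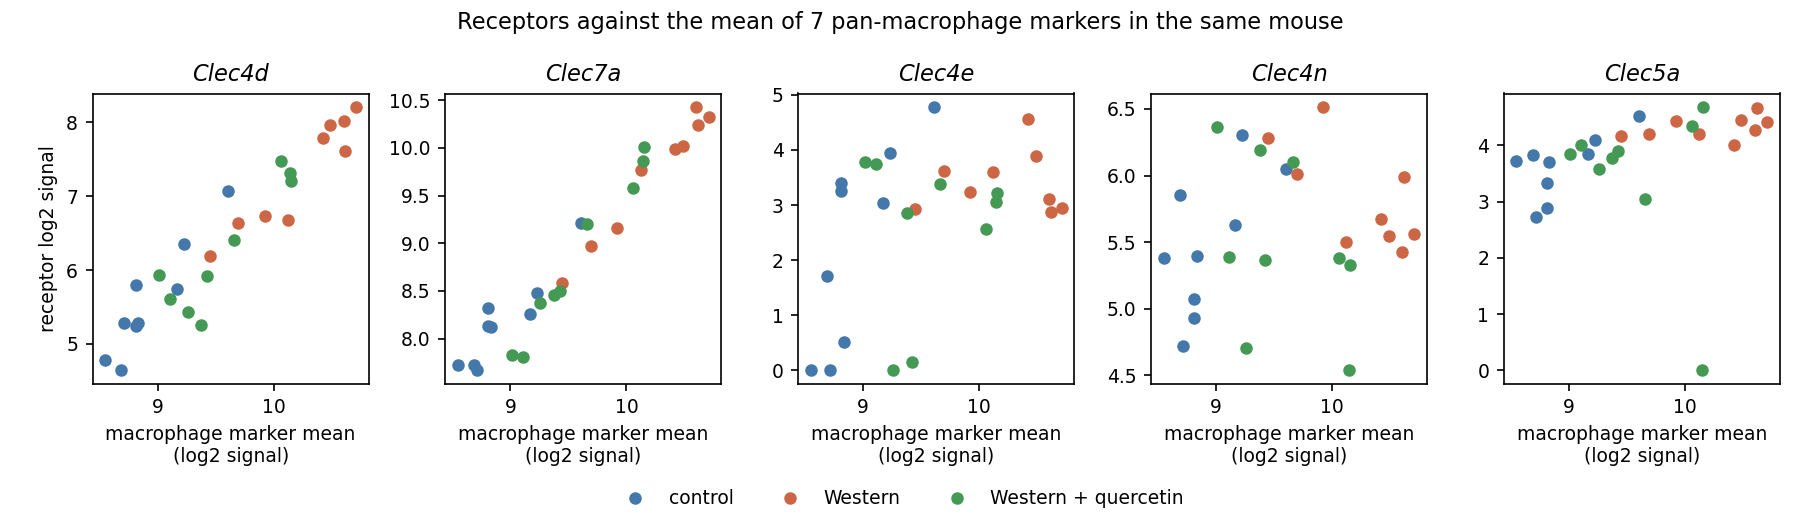
Log2 signal of each receptor (y axis, own scale per panel) against the mean log2 signal of 7 pan-macrophage markers (x axis) in the same mouse, coloured by diet. Clec4d and Clec7a climb with the marker mean in every diet, with r of 0.899 to 0.989 within a diet, while Clec4e, Clec4n and Clec5a are scattered.

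The likeness of the receptors to each other and to other genes was described on residuals, the deviations of the 27 mice from the mean of their diet. Clec4d and Clec7a had r = 0.887 with each other. The other 9 pairs of receptors lay between -0.249 and 0.486, with Clec4n and Clec5a the highest of them. Among 9095 genes with a mean above the median of all genes, those most like Clec7a were Cybb (r = 0.976), the catalytic subunit of the phagocyte oxidase, Lcp1 (0.976), an actin-bundling protein of leukocytes, and Tyrobp (0.972). Those most like Clec4d were Plek (0.943), a platelet and leukocyte protein kinase C substrate, Cd300ld (0.935) and Cybb (0.921). The highest values were 0.785 for Clec4n (with Psma1, a proteasome subunit), 0.686 for Clec5a (Slc25a30) and 0.642 for Clec4e (Ccdc134). Each is the highest of 9095 values and was not tested, and mice at the floor enter the residuals of Clec5a and Clec4e.

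The counts of the following lists stand against the 11.3% of all genes called higher on the Western diet and the 0.253% and 0.077% called higher and lower with quercetin. All 3 measured neighbours of the Dectin-2 cluster rose on the Western diet (Clec4b1 by 1.99, Clec4a2 by 1.76 and Clec4a3 by 1.62 on the log2 scale; adjusted p of 4.7e-05 to 8.5e-05 in limma), with a median of 1.76 against a median of 0.00 over all genes. Clec4a2 encodes DCIR, an inhibitory receptor. With quercetin 0 of 3 passed, with a median of -0.78. Against the control diet 3 of 3 were still called higher with quercetin (median 0.98), where 5% of all genes were. Of the 4 measured neighbours of Clec7a, 1 rose: Olr1, the receptor of oxidized LDL, by 2.34 (adjusted p = 0.00098 in limma). The list median was 0.30, and 0 of 4 passed with quercetin (Olr1 -1.04, Clec12b 0.87).

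Of 14 other myeloid C-type lectin receptors, 3 rose on the Western diet (median 0.38): Clec10a, the galactose-type receptor of alternatively activated macrophages, by 0.85, Mrc1, the mannose receptor, by 0.84 and Cd302 by 0.35. None passed with quercetin, where Clec10a had -0.53 and Mrc1 -0.47 (adjusted p = 0.0812 and 0.0879 in limma). Of 10 C-type lectins of other cells, 3 rose (median 0.33), namely the scavenger receptor Colec12 by 0.64, Clec3b (tetranectin) by 0.54 and the collectin Colec11 by 0.50, and 0 passed with quercetin (Selp 0.34, Clec3b -0.23). Mrc1 is also in the list of resident macrophage markers used below.

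The adaptors and kinases next to the receptors rose on the Western diet in 10 of 12 cases, with a median of 0.91. Tyrobp, the adaptor of MDL-1, rose by 1.87, Fcer1g, the adaptor of Mincle, MCL and Dectin-2, by 1.66, the kinase Btk by 1.35 and Syk by 1.15 (adjusted p of 5.4e-05 to 0.00028 in limma). Src and Vav2 had -0.08 and 0.06 and did not pass. With quercetin 0 of 12 passed, with a median of -0.49. At an unadjusted p under 0.05 in limma, 8 of 12 were lower, against 6.41% of all genes. The smallest p values belonged to Vav3 (-0.57, adjusted p = 0.0817) and Fcer1g (-0.84, adjusted p = 0.117 in limma).

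Further along the pathway, of 10 measured genes of the Card9 complex and NF-kappaB, 1 rose on the Western diet, a share near the 11.3% of all genes: Bcl10, a partner of Card9, by 0.33 (adjusted p = 0.0101 in limma), with a list median of 0.22. With quercetin 0 of 10 passed (Bcl10 -0.17, Nfkb2 -0.25). Of 8 inhibitors, 3 rose, the lipid phosphatase gene Inpp5d (SHIP-1) by 0.97, the tyrosine phosphatase gene Ptpn6 (SHP-1) by 0.60 and Tnfaip3 (A20) by 0.37, with a list median of 0.07. With quercetin 0 of 8 passed (Inpp5d -0.65, Cbl -0.18).

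Among 16 genes listed as outputs of these receptors (cytokines, chemokines and other genes such as Egr2 and Ptgs2), 5 rose on the Western diet, with a median of 0.60. Egr2, a transcription factor induced by Dectin-1, rose by 1.50, the monocyte attractant Ccl2 by 1.40, the neutrophil attractant Cxcl2 by 1.26, Ccl3 by 1.25 and Il10 by 1.03 (adjusted p of 0.0073 to 0.0258 in limma). Il1b had -0.10 and Tnf 0.45 (adjusted p = 0.795 and 0.609 in limma). The signals of Il10, Ccl3 and Tnf were low, which limits what can be seen of them. Their mean log2 signals by diet were 3.20 to 4.23, 3.65 to 4.90 and 3.59 to 4.04. Ptgs2 went the other way, by -2.22, and did not pass (adjusted p = 0.0768 in limma). None of the 16 passed with quercetin, with a median of -0.34 (Ccl3 -0.91, Cxcl2 -0.72). Of 6 reported ligands and ligand enzymes, 4 rose: Lgals9 by 0.88, Anxa1 by 0.52, Anxa5 by 0.37 and Vim by 0.28. The list median was 0.33, and 0 of 6 passed with quercetin (Lgals9 -0.49, Anxa5 -0.21).

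**Figure D4:**
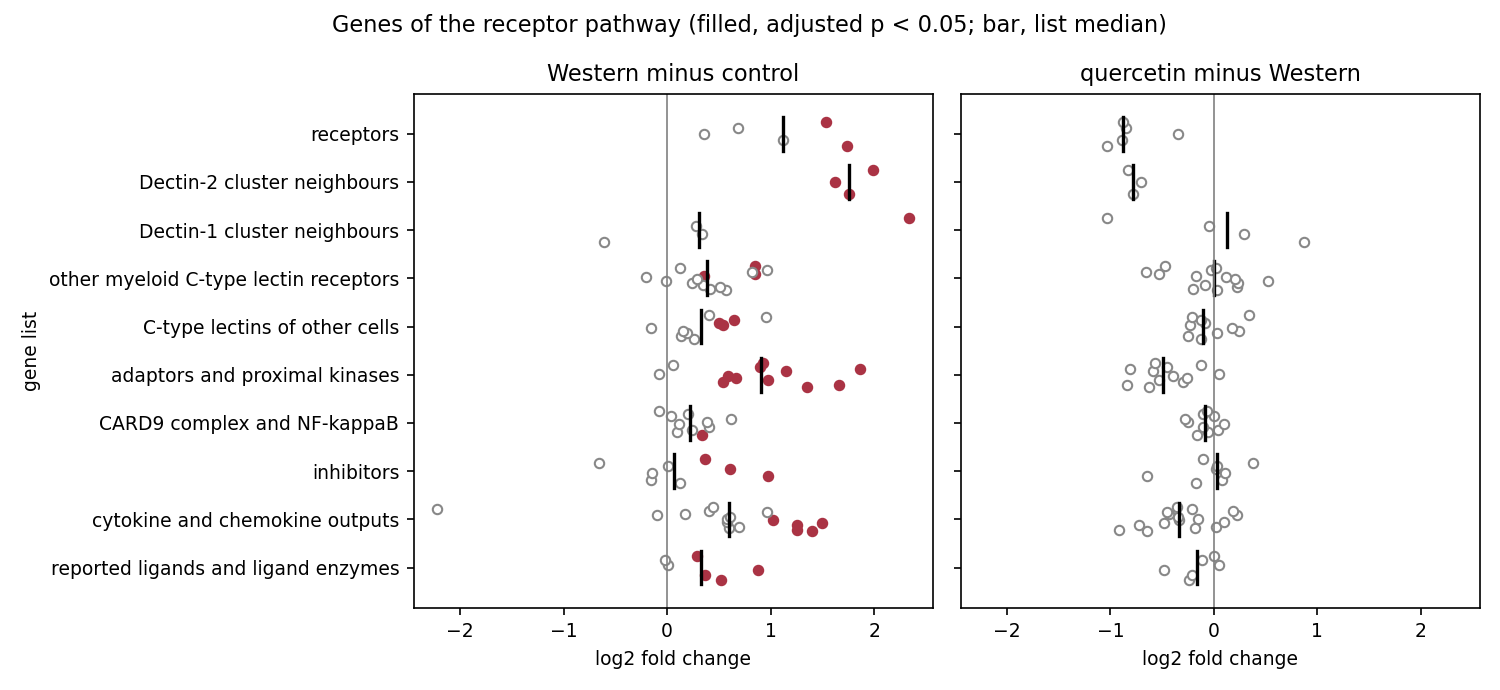
Log2 fold change (x axis) of each measured gene by list (y axis) for Western minus control mice and quercetin minus Western mice; filled points passed an adjusted p of 0.05 and bars are list medians. Filled points are most frequent among the Dectin-2 cluster neighbours (3 of 3) and the adaptors and kinases (10 of 12) on the left, and there are none on the right.

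The labels name EAT as the tissue of every sample, but their extraction text speaks of liver. The mean log2 signal of 6 adipocyte markers, Adipoq among them, was 12.2 to 12.7 on all arrays. Of the other lists that could hold these receptors, 3 of 6 resident macrophage markers (median 0.44) and 3 of 5 monocyte markers (0.84) rose on the Western diet. So did 2 of 8 neutrophil markers (0.21) and 1 of 7 dendritic cell markers (0.41), where 11.3% of all genes were called higher. None of these passed with quercetin. The genes with the highest mean of these lists were Mrc1, Nr4a1, S100a8 and Zbtb46 in turn. Mrc1 and S100a8 rose on the Western diet, while Nr4a1 (-0.35) and Zbtb46 (-0.25) did not (adjusted p = 0.562 and 0.472 in limma). For neutrophils the mean per mouse was 3.78 to 4.72, 4.23 to 4.72 and 3.99 to 5.06 on the control, Western and quercetin diets. None of the mast cell, B cell, T cell and NK cell lists had a member that passed in either of these comparisons. Hepatocyte markers such as Alb varied from 3.03 to 11.4 between mice and were above the median of all mice by over 2 in 9 of them. Western replicates 4 and 6, with 11.4 and 10.2, had the lowest Clec7a of their group (8.58 and 8.97). They also had the lowest pan-macrophage means of that group (9.45 and 9.69). Western replicates 1 and 5, also among the 9 with hepatocyte means of 7.85 and 8.34, had Clec7a at 10.02 and 9.98. Testis markers such as Prm2 ranged from 1.64 to 12.7, and 2 of 5 smooth muscle markers (Acta2 is in this list) were lower on the Western diet. The part of these other tissues in the receptor differences was not tested beyond leaving out the arrays with the most of their markers. Without the 9 arrays of high hepatocyte markers, Clec4d and Clec7a rose on the Western diet by 1.87 and 1.78 (adjusted p = 0.0114 and 0.0026 in limma), and without the 9 arrays high in testis, B cell or smooth muscle markers by 1.48 and 1.47 (adjusted p = 0.0271 and 0.0140). The log2 ratio of the 3′ to the 5′ actin control probe sets, a measure of RNA integrity, was 0.79 ± 0.12 in Western mice, 1.11 ± 0.29 in control mice and 1.14 ± 0.19 in quercetin mice (SD, n = 9 each), and its part in the receptor differences was not tested.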

How the data were processed

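Total RNA of EAT from 27 mice (9 per diet) was labelled and hybridized by the authors to GeneChip Mouse Genome arrays, which were analysed with Microarray Suite and GeneSpring. The deposited values are linear signal intensities of 45101 probe sets. How they were scaled is not given in the sources used here, and arrays differed in level (medians of 25.1 to 54.3, means without the 2% lowest and highest values of 137 to 222). The number of arrays limits the precision.

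From these intensities, 64 control probe sets were removed, arrays were quantile normalized, values under 1 were set to 1 and log2 was taken. Of the remaining probe sets, 34945 had 1 gene in the platform annotation, 932 several and 9160 none, and only the first were used. Diets were compared with limma 3.58.1 (R 4.3.3; eBayes with trend, 1 mean per diet, all 27 arrays), with Benjamini-Hochberg adjustment over 18193 genes. Relations within a diet were tested by exact permutation. The code was tested on simulated data. Promoter windows came from RefSeq (GRCm38.p6).

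All measured receptors are named. Of each pathway list, up to 4 genes with the largest change among those past the threshold on the Western diet and the 2 with the smallest p for quercetin are named, of each cell type list the gene with the highest mean, and for each receptor the genes most like it. Src, Vav2, Il1b, Il10, Tnf and Ptgs2 fall outside this rule and were named after their values were seen. The members and lists were chosen with earlier results of these data known. Alternatives covered scaling, floor, pseudocount, probe set choice, model, array exclusion and a macrophage covariate. Replicate numbers were not used to pair mice.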

Additional observations from a re-analysis of the deposited data

Results flagged for a closer look

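Of 111 groups of 9 mice looked at (receptors, the pan-macrophage mean and the named pathway genes in each diet), 11 held a mouse far from the others, by the ratio of its gap to the range of the group (Dixon's 95% critical value). Chance gives about 1 in 20 such groups. Among the receptors this was Clec5a in quercetin replicate 7, with a log2 signal of 0 (the floor) against 3.05 in the next mouse.

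A kinase gene and a phosphatase gene stood high in control replicate 3, the mouse with the highest macrophage marker mean of its group: Syk at 8.55 (nearest 7.66) and Inpp5d at 8.02 (nearest 7.27). Quercetin replicate 3 was low for Anxa1 at 12.5 (nearest 12.8), Anxa5 at 12.0 (nearest 12.4) and Nfkb2 at 5.59 (nearest 6.26). Western replicate 9 was low for Olr1 at 3.24 (nearest 4.85) and Selp at 6.13 (nearest 6.78), and Western replicate 7 was low for Clec12b at 1.21 (nearest 3.40). Clec3b was low in control replicate 6 at 7.92 (nearest 8.77) and high in quercetin replicate 6 at 9.56 (nearest 9.19).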

How the results depend on the processing

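Clec4d and Clec7a stayed higher on the Western diet, past the threshold, with every array left out in turn (Clec4d 1.62 to 1.92, Clec7a 1.45 to 1.68) and under every other alternative except the macrophage covariate, and Clec4d was not among the genes tested when only those above the median mean were kept (1 receptor higher). Between 2 and 3 receptors were higher when 1 array was left out, the third being Clec5a without quercetin replicate 7. With the pan-macrophage mean as covariate 0 receptors passed, and Western minus control was -0.29 for Clec4e, -0.53 for Clec4d and -0.50 for Clec7a, quercetin minus Western was 0.10 for Clec4d and 0.15 for Clec7a, and quercetin minus control was -0.47 for Clec4e, -0.42 for Clec4d and -0.35 for Clec7a. Array weights, the methods' test with Benjamini-Hochberg adjustment of its analysis of variance and that test without it each called 2 receptors lower with quercetin. The cause was not tested. The other Clec4e probe set gave -0.082 for Western and -0.23 for quercetin against control. The remaining turns of sign concern quercetin minus control, where no receptor passed: Clec4n was -0.013 after a median shift, -0.11 with array weights and -0.066 without arrays of other-tissue markers, Clec4e was -0.002 with a pseudocount of 16 and -0.32 without arrays of high hepatocyte markers (chosen after seeing the data), and Clec5a was 0.018 with that pseudocount and 0.065 without arrays of other-tissue markers. With each array left out these differences spanned -0.052 to 0.55 for Clec4e, -0.11 to 0.12 for Clec4n and -0.32 to 0.27 for Clec5a. A floor of 32 gave no value for Clec4e and Clec5a, whose signals are all below it. Without the 2 mice farthest from the median of the marker mean, 2 of 15 relations passed (7 mice per diet), and r turned to -0.21 and -0.082 for Clec4e in Western and quercetin mice, and to 0.14 for Clec5a with quercetin.

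Counts over all genes moved more than the receptor calls. Western higher ranged from 3 (covariate) to 2329 (median shift) against 2047, Western lower from 1 (covariate) to 1943 (array weights) against 1172, quercetin against Western higher from 0 (median shift) to 766 (array weights) against 46 and lower from 0 (no normalization) to 676 (the methods' test unadjusted) against 14, and quercetin against control from 144 to 1639 against 910 higher and from 23 to 667 against 301 lower. Mice with the same replicate number did not deviate together (correlations of -0.33 to 0.18, over 0.1 in 4 of 27 pairs), so the numbers were not taken to pair mice. With the replicate number as a block, 2 receptors were higher on the Western diet and 0 lower with quercetin, and quercetin against Western changed from 46 to 6 genes higher and from 14 to 2 lower. The signals of Clec4e and Clec5a, below 32 on all 27 arrays, limit what can be seen of both.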
